A study of Homo sapiens with 58 samples.

Results

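The comparison described here sets HuR bound to RNA close to the stress granule protein G3BP1 against HuR bound to RNA in the nucleus, both in Huh-7.5 cells treated with arsenite. Its members are 8 of the 58 libraries of the series: 4 captured from the APEX-G3BP1 line (G3BP replicates 4 to 7) and 4 captured from the APEX-NLS line (NLS replicates 1 to 4). They were chosen by their sample labels alone, as the libraries of these lines in the sets named JL0388 (G3BP 4 and 5, NLS 1 and 2) and JL1024 (G3BP 6 and 7, NLS 3 and 4), the only sets that hold both lines. Huh-7.5 is a human hepatocellular carcinoma line. Each derived line expresses APEX, an engineered peroxidase that tags nearby proteins with biotin; in one it is joined to G3BP1, and in the other it carries a nuclear localisation signal (NLS). The cells of all 8 libraries received 0.5 mM sodium arsenite for 45 min, 0.5 mM biotin phenol over the last 30 min and 1 mM hydrogen peroxide for 1 min, and were crosslinked with 254 nm ultraviolet light at 400 and 200 mJ/cm2. HuR was then immunoprecipitated with antibody 3A2, and biotinylated HuR was isolated on streptavidin before its RNA footprints were sequenced (colocalization CLIP, a crosslinking and immunoprecipitation assay). Input libraries skipped the streptavidin step, and mock libraries came from cells without arsenite. The labels do not say whether replicates came from separate cultures, or whether a line was 1 clone, so p-values measure the spread between these libraries, which may be technical.

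HuR, the product of ELAVL1, is an RNA-binding protein that recognises U-rich and AU-rich stretches in introns and 3'UTRs and is known for stabilising mRNAs. It shuttles between nucleus and cytoplasm. Arsenite blocks translation initiation, and untranslated mRNPs then gather with G3BP1, which nucleates the assembly, into stress granules, where HuR is also found.

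The unit throughout is the CLIP tag, 1 sequenced footprint, counted over 387214 peaks of the combined peak table. Library totals ran from 28062 to 117098 tags in the G3BP group and from 72101 to 523287 in the NLS group, so that 1 tag was worth 8.54 to 35.6 CPM (tags scaled to a library of 1e6 tags) in G3BP libraries and 1.91 to 13.9 CPM in NLS libraries. Between 6.59% and 18.6% of each library's tags lay in peaks. The 8 libraries together held 146968 tags in peaks, spread over 82448 peaks, of which 1629 had a tag in at least 4 libraries and could be tested; those peaks held 20.6% of the tags. Within set JL0388 the replicate pairs did not differ beyond sampling noise at p under 0.05. The chi-square per degree of freedom was 1.24 over 101 genes for G3BP 4 and 5 (chi-square p = 0.0504, close to the cut). It was 0.971 over 402 genes for NLS 1 and 2 (chi-square p = 0.651). The JL1024 pairs did differ (3.53 and 1.79). Each JL0388 pair was therefore counted once in means, leaving n = 3 per group. The tests keep all 8 libraries, and calls that were lost with each such pair counted once are given as such. G3BP replicate 6 stood apart from the other G3BP libraries in its makeup. In bulk libraries, fewer molecules of an RNA near the enzyme and less HuR bound per molecule cannot be told apart.

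The makeup of the bound RNA differed most in 3'UTRs. In the G3BP group, 3'UTR peaks held 61.8% of tags in peaks in replicate 4 (95% Wilson interval 61.0 to 62.6), 59.5% in replicate 5 (58.1 to 60.8), 28.0% in replicate 6 (27.2 to 28.8) and 44.6% in replicate 7 (43.4 to 45.8). In the NLS group the share was 13.1% in replicate 1 (12.5 to 13.7), 13.1% in replicate 2 (12.8 to 13.5), 13.7% in replicate 3 (13.3 to 14.03) and 15.7% in replicate 4 (15.2 to 16.1). The groups did not overlap, and every G3BP library lay above every NLS library in both sets; these intervals cover counting error only. The means were 44.4% ± 16.3 for G3BP and 14.1% ± 1.35 for NLS (SD, n = 3 each). Over all 8 libraries the difference was 34.6 percentage points, with an exact two-sided permutation p = 0.0556 when labels were permuted within sets, the smallest that this design allows, and p = 0.111 after adjustment over the 10 annotation classes. Permuted over all 8 libraries without regard to set, the exact p was 0.0286, again the smallest possible (adjusted p = 0.0952). With each JL0388 pair counted once the difference was 30.3 points, with an exact permutation p = 0.167 within sets and 0.1 without regard to set, each the smallest that 3 against 3 values allow there. The difference was 47.5 points in set JL0388 and 21.6 points in set JL1024.

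Introns showed the opposite difference in one set. Intron peaks held 14.4%, 15.7%, 32.7% and 18.8% of tags in G3BP replicates 4 to 7, against 51.3%, 50.5%, 31.4% and 32.2% in NLS replicates 1 to 4. The groups were far apart in set JL0388, at -35.8 points, and overlapped in set JL1024, at -6.04 points, where G3BP replicate 6 lay above both NLS libraries. The overall difference of -20.9 points had an exact two-sided permutation p = 0.167 within sets and did not pass the threshold. Non-coding RNA peaks held 5.76% to 12.7% of tags in the G3BP group and 14.5% to 24.9% in the NLS group, with no overlap (difference -10.7 points, exact permutation p = 0.0556). snoRNA peaks were at 0.0975% and 0.173% in G3BP against 0.200% and 0.276% in NLS in set JL0388, and at 0.292% and 1.104% against 2.66% and 2.13% in set JL1024 (exact permutation p = 0.0556). Peaks up to 10 kb downstream of genes (0.471 points, G3BP minus NLS) and unannotated peaks (-1.49 points) reached the same smallest p, while 5'UTR, CDS, transposable element and other peaks did not. With pairs counted once, each of these classes that reached the smallest p had an exact permutation p = 0.167 within sets, again the smallest possible.

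**Figure D1:**
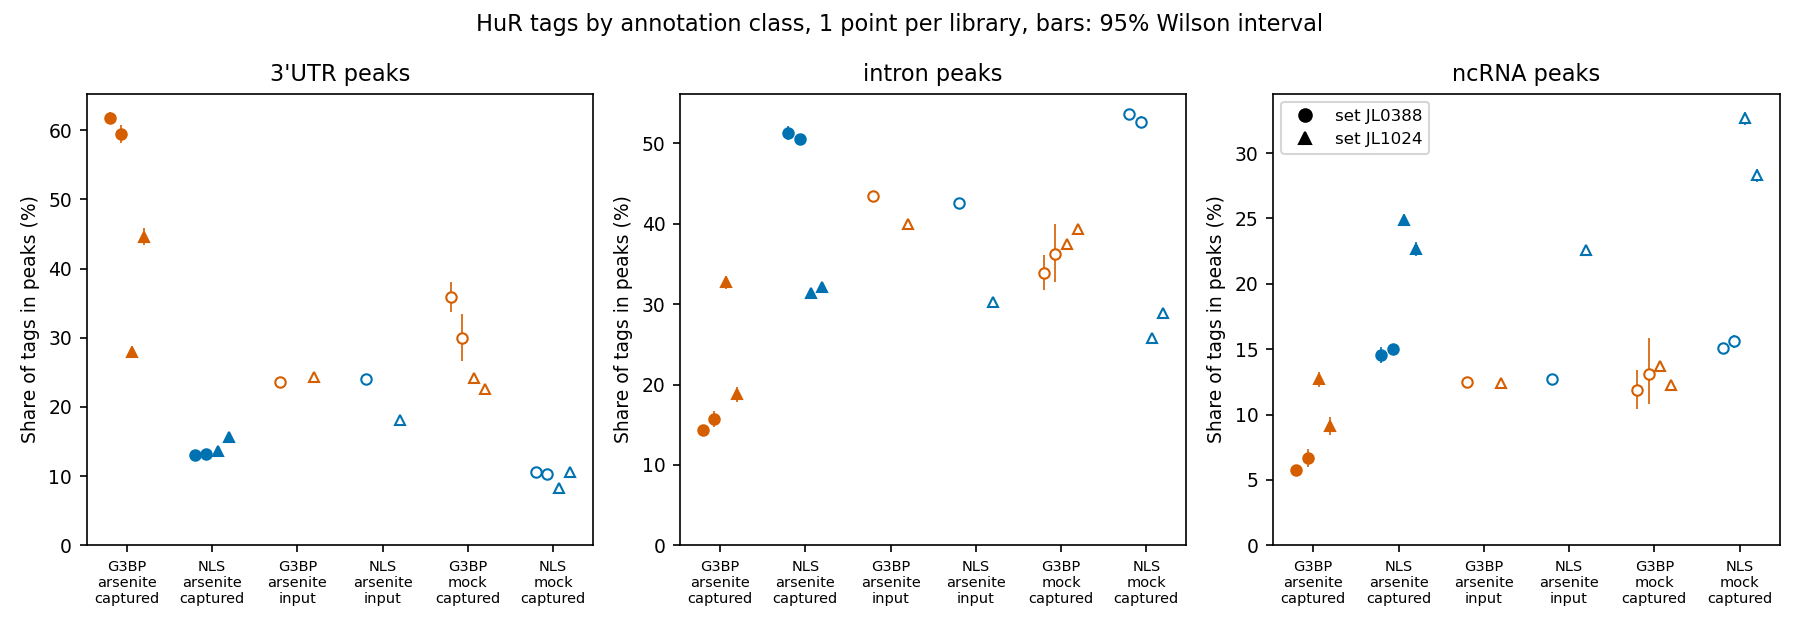
Share of tags in peaks (%, vertical axis) that fell in 3'UTR, intron and ncRNA peaks, with 1 point per library, 95% Wilson intervals, circles for set JL0388, triangles for set JL1024, orange for the G3BP line and blue for the NLS line. Filled points are the captured arsenite libraries, where the 3'UTR share ran from 28.0% to 61.8% in G3BP and from 13.1% to 15.7% in NLS; open points are the inputs and the mock captures, placed beside them.

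The inputs of the same lines measured what HuR bound in the whole cell. Their 3'UTR share was 23.6% and 24.3% for the G3BP line and 24.1% and 18.1% for the NLS line, in sets JL0388 and JL1024. Streptavidin capture thus left G3BP libraries above their own input and NLS libraries below theirs in both sets. The captured difference exceeded the input difference by 48.0 points in set JL0388 and by 15.5 points in set JL1024, with 1 input per line and set and so no test of its own. The ncRNA share differed already between the JL1024 inputs (12.4% for the G3BP line, 22.6% for the NLS line), and the snoRNA difference of the inputs there, -2.84 points, was as large as that after capture, -1.70 points.

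Without arsenite the lines also differed. Mock captures of the G3BP line held 22.6% to 35.9% of tags in 3'UTR peaks and those of the NLS line 8.35% to 10.6%, a difference of 18.2 points (exact two-sided permutation p = 0.0556 within sets, the smallest possible). With arsenite the difference was 16.4 points larger, at 25.1 points in set JL0388 and 7.72 points in set JL1024. This change did not pass a test that permuted treatment within line and set (exact two-sided p = 0.144 over 1296 arrangements, adjusted p = 0.359 over the 10 classes). For introns the difference changed by -17.4 points with arsenite (exact p = 0.0139, adjusted p = 0.139), at -17.7 points in set JL0388 and -17.1 points in set JL1024. The mock G3BP libraries of set JL0388 were shallow, with 1831 and 679 tags in peaks.

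The shift towards 3'UTRs also appeared inside single genes. For 621 genes both the summed 3'UTR tags and the summed intron tags could be tested. In 493 of them the 3'UTR sum was higher and the intron sum lower in G3BP, in 62 both were higher, in 61 both were lower and in 5 the 3'UTR sum was lower and the intron sum higher. Over all tested sums, 90.2% of the 1430 3'UTR sums and 16.4% of the 1854 intron sums were above 0. The counts thus largely follow these class-wide shifts. The 3'UTR difference exceeded the intron difference in 597 genes, 96.1%, with medians of 0.90 and -0.66 (log2, G3BP minus NLS). Taking the tags of these genes together, 3'UTRs held 82.7%, 81.2%, 51.1% and 74.8% of their 3'UTR and intron tags in G3BP replicates 4 to 7. The values in NLS replicates 1 to 4 were 22.3%, 21.7%, 33.2% and 34.1%. No G3BP library fell among the NLS libraries, the nearest being G3BP replicate 6 (69.3% ± 16.2 against 29.8% ± 6.73, SD, n = 3 each; exact two-sided permutation p = 0.0556 within sets over all 8 libraries, the smallest possible). The 3 genes with the most 3'UTR tags among them were HNRNPH1, a splicing factor, CTNNB1, which encodes the adhesion and Wnt protein beta-catenin, and SPTBN1, a spectrin of the membrane skeleton. Their 3'UTR differences were 1.93, 2.39 and 2.73 and their intron differences -0.40, -1.77 and -1.26.

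**Figure D2:**
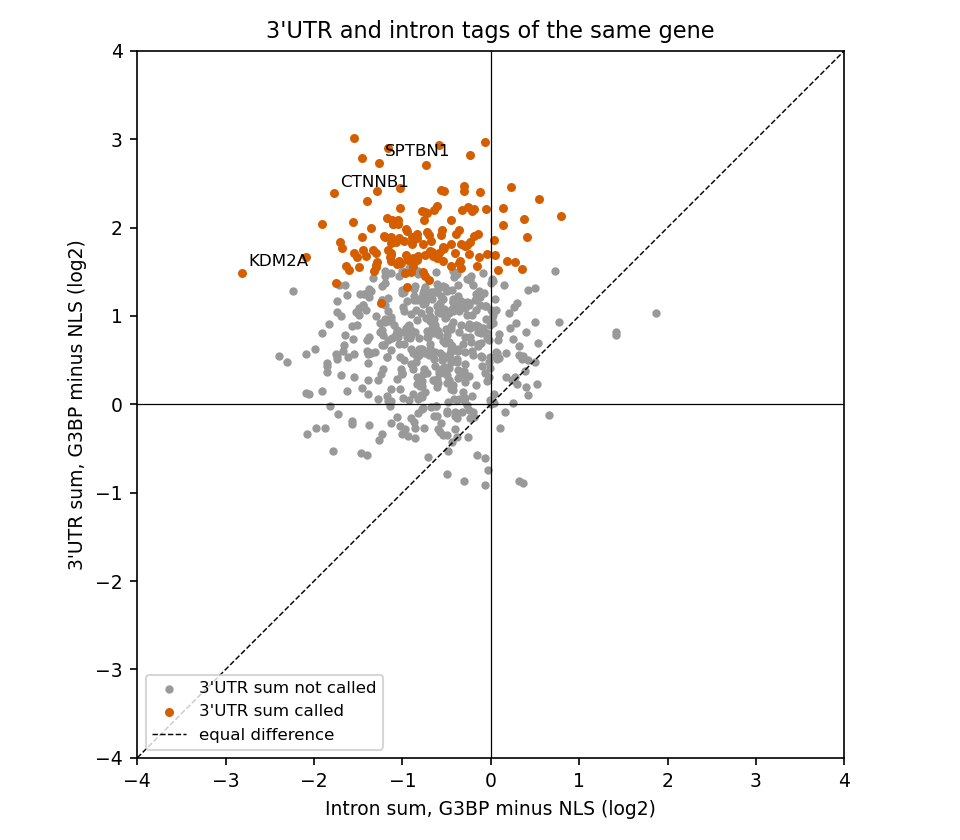
Difference between G3BP and NLS (log2, limma fit) of the summed intron tags (horizontal axis) and the summed 3'UTR tags (vertical axis) of the 621 genes for which both could be tested, 1 point per gene; orange points are 3'UTR sums that passed the test. The cloud lies above the dashed line of equal difference for 597 genes and in the upper left field for 493.

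Single features were tested with limma on log2(CPM + 9.91), with the library set in the model and Benjamini-Hochberg adjustment over all features, at adjusted p under 0.05. On this scale the change of low features is understated. Summed over the 3'UTR peaks of a gene, 320 of 1430 genes were higher in G3BP (22.4% of those tested) and 2 were lower (0.14%). The median difference over all 1430 was 0.93, so that the whole 3'UTR class stood higher on this scaling. Of all 1430 sums, 86.5% were above 0 in JL0388 (median 1.38) and 74.2% in JL1024 (median 0.53). For the 3'UTR sums of 316 genes, 22.1%, the groups did not overlap within either set and ran the same way; 231 of the 322 called genes were among them. With each JL0388 pair counted once, 181 (12.7%) were higher and none lower by limma (388 at an unadjusted p under 0.05), 177 of them the same genes. edgeR's quasi-likelihood test, scaled to all gene sums, called 3 genes (0.21%) higher and none lower (225 at an unadjusted p under 0.05): VCPIP1, CORO1C and SSR1. The 3'UTR sums of VCPIP1 and SSR1 had tags in only 1 NLS library each and entered the test through the G3BP libraries. The median difference over the 1430 sums was 0.96 by edgeR with TMM factors and 1.06 with DESeq2 size factors.

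The intron sums stood lower as a class on this scaling, with a median of -0.55 over 1854 genes. This lay in one set, with a median of -1.10 and 11.8% of genes above 0 in JL0388 against -0.04 and 48.1% in JL1024. Only 3 single genes, 0.162%, passed limma's test, all lower in G3BP: TAS2R14, KDM2A and DCAF6. With 0 tags in every G3BP library, the sums of TAS2R14 and DCAF6 entered the test through the NLS libraries alone, so their direction was fixed by the filter; with a tag required in at least 6 libraries, 1 intron sum was called. TAS2R14, a bitter taste receptor gene, had 0 intron tags in all G3BP libraries and 14, 23, 16 and 10 in NLS replicates 1 to 4, at least 5.43-fold lower in G3BP when the floor of 3 tags over the group is used. DCAF6, a substrate receptor of a CUL4 ubiquitin ligase, likewise had 0 intron tags in G3BP and 6, 26, 18 and 6 in NLS, at least 4.82-fold lower. KDM2A, a histone demethylase gene, had 0, 0, 4 and 1 intron tags in G3BP and 19, 47, 30 and 19 in NLS (-2.81 ± 0.68 SE, limma adjusted p = 0.0318), while its 3'UTR sum was higher in G3BP (1.49 ± 0.54, limma adjusted p = 0.0298, and 0.186 with pairs counted once). edgeR called 361 intron sums lower (19.5%) and 3 higher, and scaling to tags in peaks gave 37 lower (2%) and 1 higher (0.0539%). No intron sum passed with the pairs counted once (238 at an unadjusted p under 0.05).

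By peak, 140 of the 1629 tested were higher in G3BP (8.59%) and 8 were lower (0.491%), from a median of 0.57 over all peaks. With each JL0388 pair counted once, 35 were higher (2.15%) and 1 lower (0.0614%). Of the 140, 111 lay in 3'UTRs, which made up 898 of the tested peaks, so that 12.4% of 3'UTR peaks were higher against 1.59% of the 251 ncRNA peaks and 1.85% of the 162 intron peaks. The higher peaks that carried a gene name belonged to 112 genes, 7 of which had 2 or more. Centring turned the 3'UTR sums to 22 higher (1.54%) and 11 lower (0.769%), and scaling to tags in peaks gave 200 (14%) and 2. Of the 8 lower peaks, 6 were in ncRNAs and 2 unannotated. By gene, 130 of 3581 were higher (3.63%) and 22 lower (0.614%), around a median of 0.01. More than 50% of the tags lay in 3'UTR peaks for 115 of the 130 higher genes, for none of the 22 lower genes and for 1098 of all 3581, while introns held more than 50% for 4, 12 and 1796 of them.

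The balance of peak calls turned on centring and with edgeR, and that of gene calls turned with edgeR, which changes the test and the scaling together. Centred on the median peak, 8 peaks were higher (0.491%) and 171 lower (10.5%). Scaled to tags in peaks, 53 were higher (3.25%) and 8 lower (0.491%). By edgeR with TMM factors 16 were higher (0.982%) and 70 lower (4.3%), and with DESeq2 size factors 10 and 72. For gene sums the higher and lower calls were 96 (2.68%) and 64 (1.79%) scaled to tags in peaks, and 13 (0.363%) and 1 (0.0279%) centred. By edgeR they were 37 (1.03%) and 168 (4.69%) with TMM factors and 37 and 115 with DESeq2 size factors. The median peak moved from 0.57 to -0.52 on centring and the median gene from 0.01 to -0.60 by edgeR. A limma call on the library total is thus relative to all tags of a library, and an edgeR call is relative to its own scaling factors. Both tools, in the same direction, called 33 genes higher and 22 lower, the latter being all that limma called lower. With each JL0388 pair counted once, limma called 1 gene, VCPIP1 (0.0279%; 487 at an unadjusted p under 0.05). The number of calls also depended on G3BP replicate 6, without which 471 3'UTR sums, 360 genes and 243 peaks passed.

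**Figure D3:**
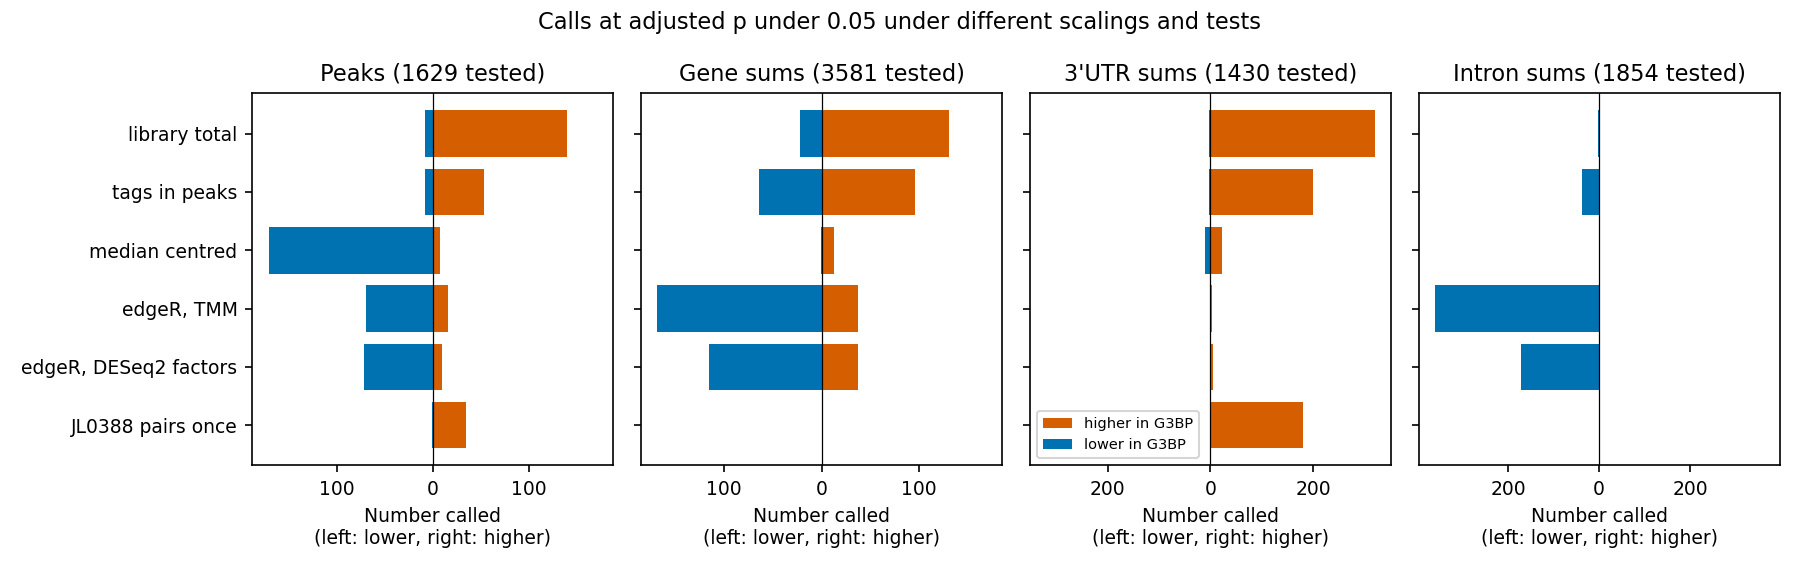
Number of peaks, gene sums, 3'UTR sums and intron sums called higher (orange, right) and lower (blue, left) in G3BP at an adjusted p under 0.05, for 6 scalings or tests (rows). The 3'UTR sums are called higher on the library total (320), on tags in peaks (200) and with pairs counted once (181), and hardly at all by edgeR (3 with TMM factors), which instead calls intron sums lower (361).

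The 12 genes named as higher were those with the largest differences among genes with at least 20 tags and no overlap of the groups within either set. In 11 of them at least 87.8% of the tags lay in 3'UTR peaks. The largest difference was that of VCPIP1, a deubiquitinating enzyme that works with the ATPase VCP in Golgi reassembly. It stood at 113, 321, 76.9 and 224 CPM in G3BP replicates 4 to 7 and at 0, 13.4, 0 and 2.90 CPM in NLS replicates 1 to 4, from 43 and 4 tags. The groups were 173 ± 82.9 and 3.20 ± 3.35 CPM (SD, n = 3 each), a difference of 3.69 ± 0.55 on the log2 scale (limma adjusted p = 8.5e-08, edgeR adjusted p = 6.7e-05, limma adjusted p = 0.0108 with pairs counted once). Of its 47 tags, 38 lay in 1 3'UTR peak at chr8:66632049-66632069 on the minus strand.

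SSR1, the alpha subunit of the complex that accompanies the translocon of the endoplasmic reticulum, had 147, 107, 102 and 29.9 CPM in G3BP and 1 tag in all 4 NLS libraries (3.17 ± 0.59, limma adjusted p = 3.6e-05). It met the filter through the G3BP libraries, so its direction was largely set by the filter. CORO1C, an actin-binding coronin, had 462, 285, 154 and 119 CPM in G3BP and 13.9, 35.7, 1.91 and 29.0 CPM in NLS (3.13 ± 0.51, limma adjusted p = 8.6e-07). SCD, the stearoyl-CoA desaturase of fatty acid synthesis, was the most heavily bound of the 12, with 688, 1033, 213 and 433 CPM in G3BP and 83.2, 66.9, 36.3 and 78.4 CPM in NLS (2.82 ± 0.45, limma adjusted p = 4.8e-07). In these genes every G3BP library exceeded every NLS library, and the JL0388 libraries of G3BP were mostly the highest. Others served translation termination (GSPT1, 2.92), lipid transfer (STARD7, 2.94), chaperoning with HSP90 (SUGT1, 2.83), protein conjugation (SUMO2, 2.84), chromatin repression (GATAD2A, 2.82), nuclear import (NUTF2, 2.79) and Rab recycling (GDI2, 2.77). The remaining one, OVCH1-AS1, is an antisense RNA with 147, 321, 17.1 and 14.9 CPM in G3BP and 1 tag in NLS (2.89). Its tags were not in 3'UTR peaks. Like SSR1 it met the filter through the G3BP libraries, which largely set its direction. SUMO2 differed in pattern from the others, since its JL1024 values, 111 and 179 CPM, exceeded its JL0388 values, 45.1 and 71.3 CPM.

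All 12 passed with edgeR (adjusted p from 6.7e-05 to 0.0343) and when centred on the median gene (limma adjusted p from 0.00671 to 0.0374), and 1 of them, VCPIP1, passed with pairs counted once (limma adjusted p up to 0.122). In the JL0388 inputs all 12 were higher in the G3BP line than in the NLS line, by 1.04-fold to 1.83-fold, and in the JL1024 inputs 10 were, by up to 8.22-fold. The excess of the captured over the input difference ran from 1.57 to 2.87 (log2) over the 12. They were chosen for a large captured difference, so an excess was favoured by the choice. No gene of 7200 passed that interaction test (0 by limma with 222 at an unadjusted p under 0.05, and 0 by edgeR with 671). The same held for the interaction of line and arsenite (0 of 6175 by limma with 288 at an unadjusted p under 0.05, 0 by edgeR with 448) and for both interactions fitted on 3'UTR sums, which were added after the data had been seen (0 of 3638 with 191, and 0 of 2623 with 221).

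**Figure D4:**
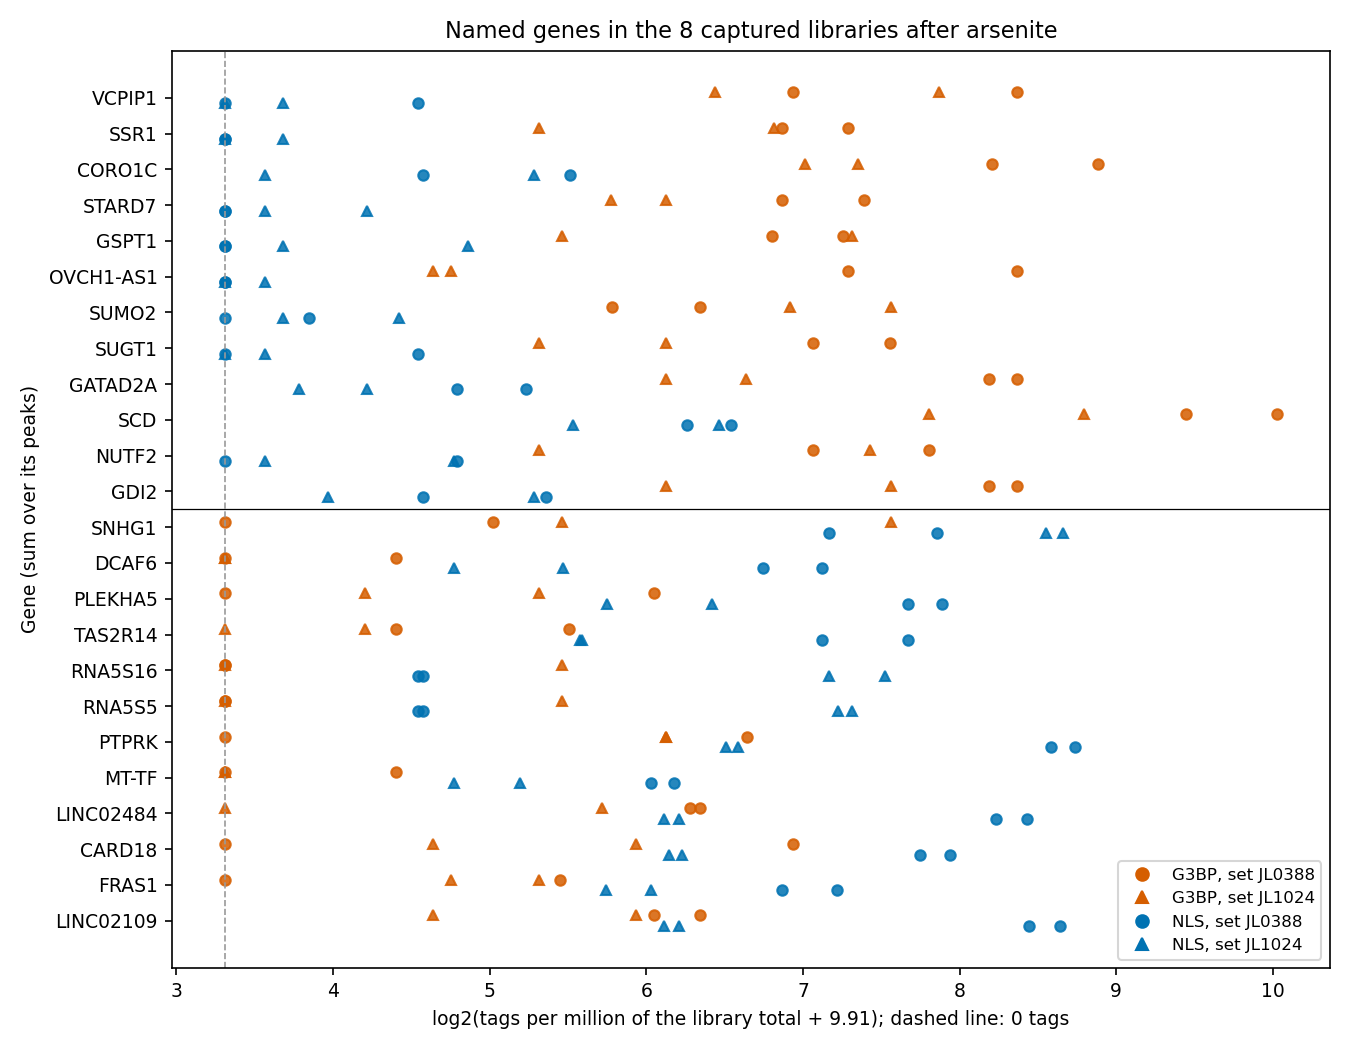
Level of the 12 genes named as higher (above the line) and the 12 named as lower (below it) in each of the 8 captured arsenite libraries, as log2(CPM + 9.91) on the horizontal axis; orange is G3BP, blue NLS, circles set JL0388 and triangles set JL1024, and the dashed line marks 0 tags. The rule that picked the genes required G3BP points right of all NLS points within each set for the upper genes. For the lower genes it required them to the left. Of all tested genes, 14.7% were separated in the same way. The lower genes sit at 0 tags in 1 to 3 G3BP libraries in most cases.

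The 12 genes named as lower were non-coding RNA genes and 6 genes with most of their tags in introns, as 50.2% of all tested genes had. SNHG1, a host gene of box C/D snoRNAs, had 22.5, 0, 34.2 and 179 CPM in G3BP replicates 4 to 7 and 222, 134, 394 and 366 CPM in NLS replicates 1 to 4 (-2.72 ± 0.49, limma adjusted p = 1.7e-05, edgeR adjusted p = 1.7e-05). The groups did not overlap within a set, though G3BP replicate 7 exceeded NLS replicate 2 of the other set. All 5 tested SNHG1 peaks were lower in G3BP and 2 of them passed, the one at chr11:62855021-62855041 having 0 tags in all G3BP libraries and 8, 18, 7 and 5 in NLS; that peak met the filter through the NLS libraries alone. Neither passed with pairs counted once (limma adjusted p = 0.0929 and 0.141). The inputs gave 189 and 184 CPM for the G3BP and NLS lines in set JL0388 but 77.4 and 927 CPM in set JL1024, so that the lines differed there before capture.

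Intron-bound genes among the 12 were DCAF6, PLEKHA5, TAS2R14, PTPRK, CARD18 and FRAS1, with 77.6% to 97.0% of their tags in introns. PTPRK, a receptor tyrosine phosphatase, had 90.2, 0, 59.8 and 59.7 CPM in G3BP and 416, 374, 86.0 and 81.3 CPM in NLS (-2.05 ± 0.49, limma adjusted p = 0.00245). Its distance between groups was wide in JL0388 and narrow in JL1024. The long non-coding RNAs LINC02484 (-1.83) and LINC02109 (-1.61) had the same pattern. RNA5S16 and RNA5S5 (-2.10 and -2.07) are 5S ribosomal RNA genes, and MT-TF (-1.96) is the mitochondrial phenylalanine tRNA gene. RNA5S16, RNA5S5, MT-TF and the DCAF6 gene sum each had tags in only 1 G3BP library. They met the filter through the NLS libraries, which largely set their direction. The 5S genes are near-identical copies, as are parts of the TAS2R family, so that the placing of their tags is uncertain. In the JL1024 inputs, before capture, the G3BP and NLS lines had 22.1 and 156 CPM for RNA5S16 and 11.1 and 165 CPM for RNA5S5. Over the 12 lower genes the inputs of the G3BP line were above those of the NLS line for 8 in JL0388 and for 6 in JL1024, with ratios of 0.904 to 1.92 and 0.0669 to 2.34. In the G3BP group RNA5S16 had tags only in replicate 6, and in the NLS group it had 1, 3, 91 and 46 tags, mostly in JL1024. None of the 12 passed with pairs counted once (limma adjusted p from 0.0851 to 0.363), and 1 passed on centring (SNHG1, limma adjusted p = 0.0315; the others up to 0.186), whereas all 12 passed with edgeR (adjusted p from 1.7e-05 to 0.00674).

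Among long non-coding RNAs, the named list of nuclear ones stood low in G3BP without a gene called by limma. Its 8 tested members had a median difference of -0.95 against 0.01 over all genes, 2 of 8 were above 0, and none passed with limma. MALAT1, an abundant RNA of nuclear speckles, had 316, 285, 769 and 284 CPM in G3BP and 1345, 1137, 493 and 595 CPM in NLS (-1.11 ± 0.39, limma adjusted p = 0.0812, edgeR adjusted p = 0.00862). Its groups separated in JL0388 and overlapped in JL1024, where G3BP replicate 6 was the highest. Of its 19 tested peaks 17 were lower in G3BP, and the one with the most tags, at chr11:65501022-65501042, passed (-1.40 ± 0.43, limma adjusted p = 0.0216, and 0.177 with pairs counted once). NEAT1, the scaffold of paraspeckles, had 1, 1, 1 and 2 tags in G3BP and 8, 24, 14 and 8 in NLS (-1.15 ± 0.56, limma adjusted p = 0.242, edgeR adjusted p = 0.0170), while its 1 tested peak stood at 0.35. The snoRNA host list had 7 tested members, of which SNHG1 and GAS5 were lower and none higher (limma, median -0.17), beside 0.614% lower and 3.63% higher over all genes. GAS5 had 11.3, 0, 17.1 and 329 CPM in G3BP and 125, 71.3, 269 and 229 CPM in NLS, with G3BP replicate 7 above NLS replicates 1 to 4 (-2.14 ± 0.51, limma adjusted p = 0.00218, and 0.255 with pairs counted once). Its JL1024 inputs differed before capture, at 60.8 CPM for the G3BP line and 566 CPM for the NLS line.

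NORAD, a cytoplasmic RNA that binds PUMILIO proteins and is known to enter stress granules, was the one tested lncRNA of the cytoplasmic list that was higher, the other being CYTOR at -0.66. It had 248, 214, 8.54 and 29.9 CPM in G3BP and 27.7, 22.3, 1.91 and 11.6 CPM in NLS (1.78 ± 0.56, limma adjusted p = 0.0386, edgeR adjusted p = 0.123), and lost the call with pairs counted once (limma adjusted p = 0.313). The G3BP values were high in JL0388 and within the NLS range in 1 JL1024 library. Of the list of mRNAs known to be enriched in stress granules, NORAD included, 7 genes were tested and NORAD alone passed, beside 3.63% higher over all genes. The median was 0.16 against 0.01 over all genes, and none of its 4 tested 3'UTR sums passed (limma), with a median of 0.77 against 0.93. MACF1 (-1.17) and HUWE1 (-1.48), both bound by few tags in G3BP, lay on the other side without passing.

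The mRNAs of stress granule proteins followed the 3'UTR class. Of 18 tested 3'UTR sums all 18 were above 0 and 6 passed, with a median of 1.39 against 0.93 and 22.4% called over all 3'UTR sums. The 6 were G3BP1, DDX6, a helicase of mRNA decay, IGF2BP1 and LARP1, which bind mRNAs in the cytoplasm, PRRC2C and STAU1. LARP1 and STAU1 lost the call with pairs counted once (limma adjusted p = 0.0586 and 0.112). G3BP1 itself had 32, 9, 5 and 5 3'UTR tags in G3BP and 3, 7, 5 and 4 in NLS (2.32 ± 0.48, limma adjusted p = 6.0e-05). Of the 77 tags of the gene, 70 were in the 3'UTR and 7 in introns. The 19 tested intron sums of the same list had a median of -0.55, equal to that over all intron sums, and none passed (limma). The G3BP and NLS lines differ in the G3BP1 transgene, and its input levels were 131 and 121 CPM in JL0388 and 49.8 and 28.6 CPM in JL1024.

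Known HuR target mRNAs gave 5 higher of 12 tested 3'UTR sums, with a median of 1.30, beside 22.4% and 0.93 over all 3'UTR sums. ACTB, cytoplasmic actin, had 609, 641, 376 and 896 CPM in G3BP and 55.5, 49.0, 162 and 258 CPM in NLS (2.41 ± 0.37, limma adjusted p = 1.6e-08; edgeR adjusted p = 0.252), with 5 tested 3'UTR peaks all above 0 and 4 passing, 1 of them also with pairs counted once; near-identical copies of ACTB exist in the genome. The NLS values of ACTB were higher in JL1024 than in JL0388, as were its inputs in both lines. NUCKS1 (2.43), CDC42 (2.40), ELAVL1 itself (1.95) and CCND1 (1.48) were the others, of which CCND1 lost the call with pairs counted once (limma adjusted p = 0.241). ELAVL1, whose 34 tags all lay in its 3'UTR, had 113, 143, 51.2 and 29.9 CPM in G3BP and 13.9, 17.8, 9.55 and 5.81 CPM in NLS. Every G3BP library was above every NLS library. Of the HNRNP and SRSF splicing factor genes, 5 of 24 3'UTR sums were higher (HNRNPU 2.53, HNRNPL 2.15, HNRNPK 2.02, HNRNPH1 1.93 and SRSF1 1.56) and 1 was lower, SRSF5 (-1.64 ± 0.61, limma adjusted p = 0.0375), the list's median being 0.71. That share is near the 22.4% over all 3'UTR sums, and the median lies below their 0.93. SRSF1 and SRSF5 lost the call with pairs counted once (limma adjusted p = 0.167 and 0.209). SRSF5 had 7 and 22 tags in NLS replicates 1 and 2 and at most 3 in any other library. The other lower 3'UTR sum of all 1430 was NABP1, a single-stranded DNA-binding protein gene (-1.65 ± 0.61, limma adjusted p = 0.0329, and 0.182 with pairs counted once).

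Stress response lists held few testable members, so that their counts cannot be set apart from the 22.4% of all 3'UTR sums and the 3.63% of all gene sums called higher. Of the integrated stress response genes 1 of 3 tested 3'UTR sums was higher, PPP1R15B (1.51, limma adjusted p = 0.182 with pairs counted once), which directs the phosphatase that reverses eIF2alpha phosphorylation. Of the NRF2 genes 1 of 4 was higher, TXNRD1, thioredoxin reductase (2.46 ± 0.57, limma adjusted p = 4.1e-04), with a gene median of -0.41, and NFE2L2, which encodes NRF2, had 2, 0, 0 and 1 tags in G3BP and 7, 14, 13 and 10 in NLS (gene sum -1.76, limma adjusted p = 0.0650, edgeR adjusted p = 0.0116). None of the 8 heat shock and chaperone genes and none of the 7 immediate early genes passed (limma, gene sums, background 3.63%). Nor did any of the 15 cytosolic ribosomal protein genes, whose median was -0.60 and of which 4 were above 0. Hepatocyte markers were present in every library. Summed over the list they stood at 1060, 748, 316 and 269 CPM in G3BP replicates 4 to 7. In NLS replicates 1 to 4 they stood at 277, 138, 141 and 136 CPM. AHSG and APOA2 were among those that had a peak in the table and 0 tags here. Of 8 tested, 2 were higher, AFP (1.82) and HNF4A (1.79), beside 3.63% of all genes, and neither with pairs counted once (limma adjusted p = 0.261 and 0.244). Of 12 markers of other cell types 5 had a peak in the table and could show a tag, and 1 of these had a tag, in 1 library. No list member called on 3'UTR sums passed with edgeR.

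Among 5'UTR peaks, 5 of 27 tested were higher in G3BP, beside 8.59% of all tested peaks. Sequence could be read for 3 tested peaks, those inside RefSeq promoter windows of 300 bases around a gene start (build GRCh38.p14, matched by coordinates), and they are shown because a T-run, the DNA form of the U-run that HuR is known to bind, can be read in 2 of them. Counted from the gene start of their windows, the first bases of the peaks lie at -6, -7 and -193, in the order shown. By that annotation both T-runs lie before the gene start, and whether the RNA holds them was not tested. Each is the 21 bases from the listed start to the listed end on the gene's strand, since the origin of counting was not given in the sources used here, and capitals mark runs of at least 3 T.
C6orf62 chr6:24719141-24719161 minus strand: TTTTTTggaaagcaaggatca
CLASP1 chr2:121649450-121649470 minus strand: TTTTTTTaatccccgcaccaa
C6orf62 chr6:24719328-24719348 minus strand: caccaagtgtaatcaataaca
The first peak of C6orf62, an open reading frame of little-known function, had 6, 2, 6 and 10 tags in G3BP and 0, 0, 0 and 3 in NLS (2.93 ± 0.61, limma adjusted p = 2.4e-04, edgeR adjusted p = 0.0289). That peak entered the test through the G3BP libraries, which largely set its direction. The peak of CLASP1, a microtubule plus-end protein, had 2, 1, 0 and 3 tags against 0, 2, 0 and 3 (1.14 ± 0.60, limma adjusted p = 0.184). The second C6orf62 peak, with no run of 3 T, had 3 tags in G3BP and 3 in NLS (0.06 ± 0.44, limma adjusted p = 0.924). For comparison, TTTTT, sought on the gene's strand only because HuR binds RNA, was present in 2.08% of all stretches of 21 bases in the promoter windows. A match is a description of these letters and not a binding site.

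Nuclear and cytoplasmic fractions of arsenite-treated Huh-7.5 cells, 3 libraries each, provided an independent division of the same peaks. Of 236332 peaks tested between the fractions, 158 were higher and 198 lower in the nuclear fraction (limma, 0.151% called). Of the former 64, and of the latter 89, were also tested between G3BP and NLS. The 64 nuclear peaks had a median G3BP minus NLS difference of -0.74, with 6 above 0, and the 89 cytoplasmic peaks one of 1.24, with 86 above 0. The 1453 peaks not called between fractions stood at 0.58, so that the order nuclear, uncalled, cytoplasmic was the same on both divisions. Scaled to tags in peaks the 3 medians were -0.88, 0.38 and 0.98, and centred on the median peak -1.83, -0.51 and 0.15. None of the 64 was called higher and 3 were called lower in G3BP, while 25 of the 89 were called higher and none lower (limma, background 8.59% higher and 0.491% lower). Within 3'UTR peaks alone the 5 nuclear ones had a median of -0.60, the 71 cytoplasmic ones 1.22 and the 822 others 0.87. These medians describe the groups of peaks and were given no test.

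**Figure D5:**
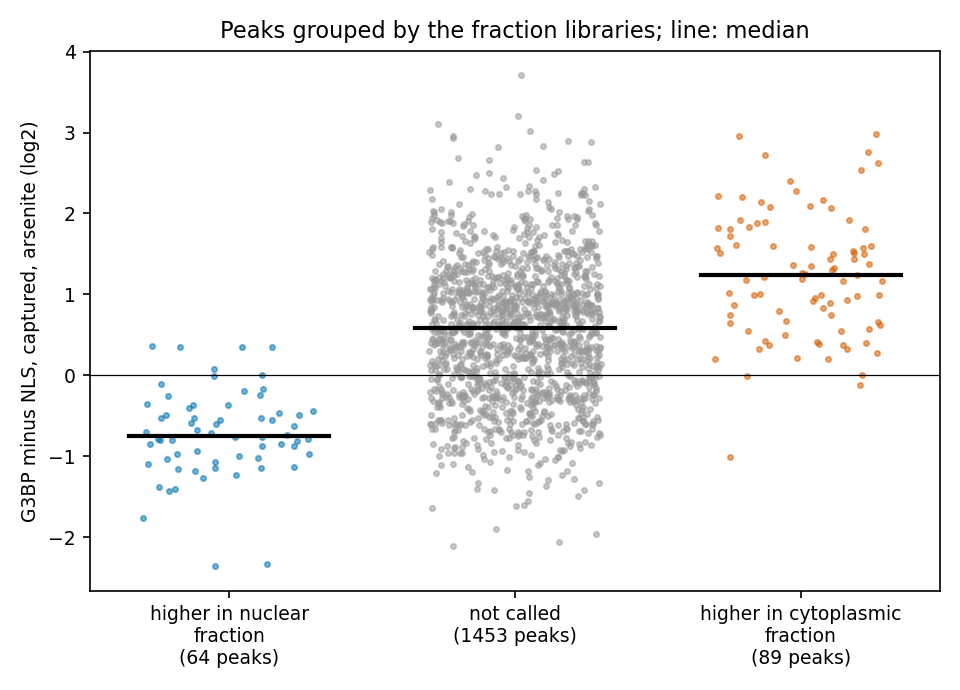
G3BP minus NLS difference (log2, vertical axis) of each peak tested in both comparisons, grouped by whether the fraction libraries called it higher in the nuclear fraction, neither, or higher in the cytoplasmic fraction; points are peaks and black lines medians. The medians rise from -0.74 over 0.58 to 1.24, and 6 of 64 nuclear and 86 of 89 cytoplasmic peaks lie above 0.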

How the data were processed

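Per the submitters' processing notes, Bowtie2, SAMtools, bedtools and HOMER and build GRCh38.p14 were used. The deposited signal of each peak is its tag coverage divided by a library total: multiplied by that total, every value came out whole within 0.02 tags (100% of values), so tags were recovered and given as CPM. Of 395471 lines, 8257 repeated ones were dropped, leaving 387214 peaks. Tags were summed per gene, per gene over 3'UTR peaks and per gene over intron peaks. The main test was limma 3.58.1 (R 4.3.3) with trend, on log2(CPM + 9.91) with set and line as terms, for features with a tag in at least 4 of the 8 libraries. edgeR 4.0.16 on recovered tags was an alternative, as were DESeq2 1.42.0 size factors, other pseudocounts (4 times smaller or larger), filters (2 or 6 libraries), centring, each set alone, and leaving out each library. The scripts were tested on simulated data. Shares were tested by exact permutation. Named genes were, per direction, the 12 with at least 20 tags, and peaks the 6 with at least 8, that passed limma, did not overlap within a set and differed most; places left were filled from edgeR's calls. List members were named if called or among the 3 with the most tags; NFE2L2, CYTOR, MACF1, HUWE1, C6orf62, CLASP1 and the MALAT1 peak were named after their values were seen. The genes, lists and comparison were chosen with earlier results of these data known. Same-numbered G3BP and NLS libraries of a set did not deviate together (correlation 0.0128 to 0.0237 around set and line means, and 0.015 to 0.154 around line means, not over 0.1 in every pair), so the numbers were not taken as pairs. One marker gene is not reported here.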

Additional observations from a re-analysis of the deposited data

Results flagged for a closer look

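In 68 groups of 4 captured libraries, Dixon's test at the 95% level marked 8 single libraries of genes named above, where about 1 in 20 groups of untied values would be marked by chance. In 6 of the 8 the other libraries of the group were all at 0, so any tag at all is marked and that rate does not apply. In the NLS group, SSR1 was at 2.90 CPM in replicate 4 and at 0 in the others. GSPT1 was at 19.1 CPM in NLS replicate 3, against 0 to 2.90 CPM. OVCH1-AS1 was at 1.91 CPM in NLS replicate 3 and at 0 elsewhere in that group. SUGT1 was at 13.4 CPM in NLS replicate 2, against 0 to 1.91 CPM. In the G3BP group, DCAF6 and MT-TF were each at 11.3 CPM in replicate 4, from 1 tag, and at 0 in the others. RNA5S16 and RNA5S5 were each at 34.2 CPM in G3BP replicate 6 and at 0 in the others. The G3BP minus NLS difference in class shares changed with arsenite for introns, by -17.4 percentage points (exact permutation p = 0.0139, adjusted p = 0.139 over 10 classes), and for the class of other peaks, by -0.916 points (exact permutation p = 0.0478, adjusted p = 0.239); neither passed after adjustment.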

How the results depend on the processing

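The 3'UTR share stayed above 0 in every alternative run, from 30.1 to 41.4 points when single libraries were left out. With labels permuted over all 8 libraries its 34.6 points had an exact permutation p = 0.0286, which did not pass after adjustment over the 10 classes (adjusted p = 0.0952). The intron share ran from -25.0 to -17.6 points without single libraries. Of the 8 other classes, 4 reached the smallest p possible; 2 did with labels permuted over all libraries, 8 in set JL0388 alone, and 1 to 7 when single libraries were left out. Calls of peaks were 148 in all, with a turn to mostly lower by edgeR (86 with TMM factors, 82 with DESeq2 size factors), on centring (179) and in JL1024 alone (1446, of which 1341 lower). They were 93 with a 4 times larger pseudocount, 29 with tags in at least 2 libraries, 61 on tags in peaks, 5 with no set in the model, 36 with pairs counted once and 10 in JL0388 alone. Each set alone was tested with a tag required in only 2 of its libraries. In JL1024 that made 5374 tested peaks, with a median of 0.25. A peak with 0 tags in both G3BP libraries could then enter through the NLS libraries, its direction fixed by the filter. Gene calls were 152 in all and turned to mostly lower by edgeR (205 with TMM factors, 152 with DESeq2 size factors); they were 14 on centring, 4 with no set, 1 with pairs counted once and 0 in either set alone (1149 and 879 at an unadjusted p under 0.05, limma). 3'UTR calls were 3 and 5 by edgeR with the 2 kinds of factors, 202 on tags in peaks, 33 on centring, 102 with no set, 181 with pairs counted once and 0 in JL1024 alone (346 unadjusted, limma). Intron calls were 364 and 175 by edgeR with the same factors, 38 on tags in peaks, 666 of 2386 tested in JL0388 alone, 1 with the larger pseudocount or with tags in at least 6 libraries, and 0 on centring, with no set, with pairs counted once and in JL1024 alone. Leaving out single libraries gave 64 to 243 peaks, 61 to 360 genes, 212 to 471 3'UTR sums and 0 to 100 intron sums, and 0 genes for either interaction. A replicate block on the numbers shared by the lines within a set gave 61 peaks, 105 genes, 250 3'UTR sums and 0 intron sums (281 unadjusted, limma); the numbers alone do not pair the libraries. The cause of these changes was not tested. Single named features kept their side of the threshold in 752 of the alternatives, lost it in 280 and gained it in 5, and none changed direction. Named genes and peaks were picked for groups that did not overlap within either set. Leaving out a library or using 1 set alone could therefore not turn them, so their steady direction was partly set by that rule. Depth limits the result: 1 tag in the shallowest G3BP library is worth 35.6 CPM, above the pseudocount, and the median tested peak had 9 tags over all 8 libraries.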
